A study of Mus musculus with 5 samples.

Results

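The insulin-like growth factor genes described here are 7 of the 51912 genes listed in the series, and none of the 7 was lost to the low-count filter. They were taken by symbol: the ligands Igf1 and Igf2, the receptors Igf1r, Igf2r and Insr, and the insulin receptor substrates Irs1 and Irs2. Total RNA of tissue labelled as mouse dorsolateral prostate, the dorsal and lateral lobes of the gland, was sequenced from libraries made with a stranded kit. The 2 libraries labelled Ghr deletion came from male mice of genotype Ghrflox/flox;ROSA26Cre-ERT2+/0, in which a tamoxifen-activated Cre recombinase is expressed from the ROSA26 locus, a locus active in most cell types, so recombination was not directed to one cell type or to the prostate. The 3 control libraries came from Ghrflox/flox males without Cre. All mice were 3 months old, carried loxP-flanked growth hormone receptor alleles, and received tamoxifen, an oestrogen receptor modulator, at 250 mg/kg daily for 5 days, with tissue taken 1 month after the last dose. The study text calls the samples of each group biological replicates.

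Igf1 and Igf2 are secreted growth factors. Both act through Igf1r, a receptor tyrosine kinase closely related to the insulin receptor Insr, and the kinases phosphorylate the docking proteins Irs1 and Irs2, which recruit phosphoinositide 3-kinase and so activate Akt. Igf2r, the mannose 6-phosphate receptor, binds Igf2 and carries it to lysosomes without a kinase of its own. Growth hormone induces Igf1 in liver and in many other tissues, and in the prostate Igf1 is known mainly as a product of the stroma that acts on the epithelium.

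Depth was 31740687 and 32782683 expected counts in the libraries labelled Ghr deletion and ran from 19517831 to 41553558 in controls. Ghr itself, the targeted gene, had 21.5 and 10.2 CPM (expected counts relative to the TMM-scaled library size) in the libraries labelled Ghr deletion, against 10.1, 11.8 and 13.2 CPM in controls, so the whole-gene count did not show a deletion, and every direction below is that of the library labels. Which exon the loxP sites flank is not given in the sources used here, so reads outside the deleted part may still be counted. Summed markers of the labelled tissue, the prostate, were very uneven, and in every library they were far below those of the seminal vesicle. The summed CPM of 5 prostate genes (Pbsn, Msmb, Azgp1, Spink1 and Hoxb13) was 0.363 and 11.2 in the libraries labelled Ghr deletion, against 2962, 1515 and 3.22 in control replicates 1 to 3, and Msmb, Spink1 and Hoxb13 were each at 0 in at least 1 library. The summed CPM of 8 seminal vesicle genes was 105000 and 183300 in the libraries labelled Ghr deletion, against 451800, 234400 and 234800 in controls. Of the 8, 6 were lower without overlap between groups, where 12.5% of all tested genes were. In control replicate 3 most of this sum came from Svs2, Svs5 and Pate4, while Svs1 had 0.0454 and 7.9 CPM in libraries labelled Ghr deletion, against 32900, 22500 and 58.6 CPM in controls. Control replicate 3 was therefore low in the prostate sum and in Svs1, as were the libraries labelled Ghr deletion. The summed CPM of 8 adipocyte genes was 63.3 and 104.6 in the libraries labelled Ghr deletion, against 43.8, 43.8 and 84.7 in controls. Of these 8, 6 were higher without overlap, where 10.8% of all tested genes were. Adipoq, Plin1, Cidec, Lep and Retn were each at 0 in at least 1 library. The part of these differences in the results below was not tested.

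Per length, the receptors were the most abundant of the 7 transcripts and Igf2 the least. In TPM (transcript abundance relative to the library and corrected for length), Igf2r averaged 25.8 ± 8.75, Insr 25.3 ± 2.86 and Igf1r 22.5 ± 0.7 TPM in the libraries labelled Ghr deletion (SD, n = 2). In controls Igf2r averaged 9.62 ± 5.36, Insr 9.17 ± 4.96 and Igf1r 12.0 ± 4.45 TPM (SD, n = 3). Igf1r exceeded Insr in 3 of 5 libraries and Igf2r in 4 of 5, and Insr exceeded Igf2r in 3 of 5, so the order among the receptors did not hold across libraries. Igf1 and Irs1 came next. Igf1 averaged 12.4 ± 8.46 TPM in the libraries labelled Ghr deletion (SD, n = 2) and 3.83 ± 2.9 TPM in controls (SD, n = 3), and Irs1 averaged 5.03 ± 1.79 and 2.89 ± 0.535 TPM in the same groups. Igf1 lay above Irs1 in every library except control replicate 2. Irs2, at 1.82 ± 0.191 TPM in the libraries labelled Ghr deletion and 0.81 ± 0.348 TPM in controls, was the sixth in all 5 libraries, and Igf2, at 1.21 ± 0.467 and 0.383 ± 0.286 TPM in the same groups, was the lowest in all 5.

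**Figure D1:**
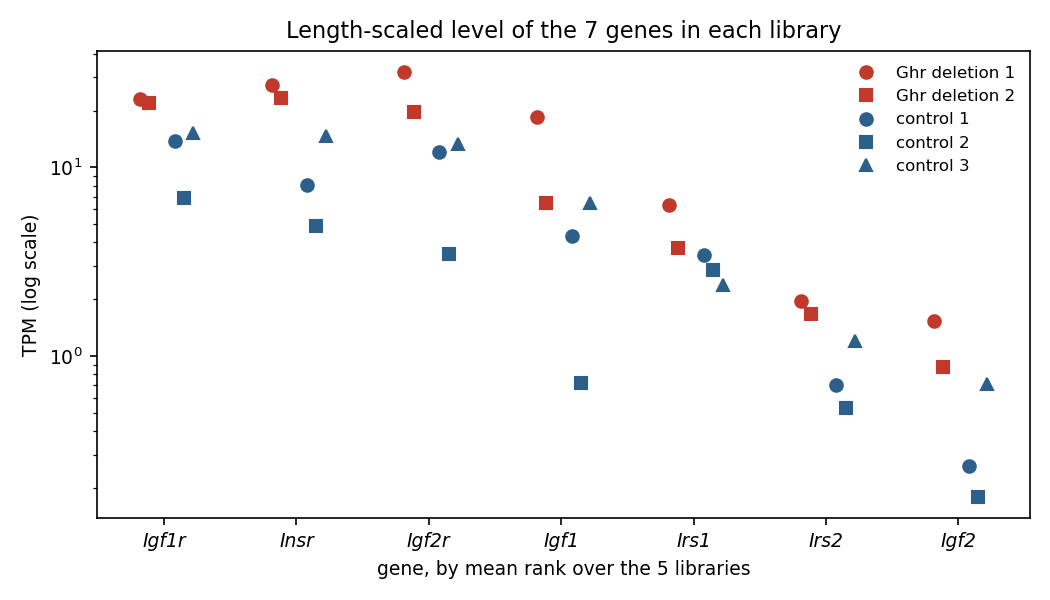
TPM on a log axis for each of the 7 genes, ordered from left to right by mean rank over the 5 libraries; each point is 1 library, red for Ghr deletion and blue for control, with the symbol giving the replicate. Igf1r, Insr and Igf2r overlap at the top, and Irs2 and Igf2 hold the last 2 places in every library.

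The TPM values of 6 of the 7 genes lay above every control in both libraries labelled Ghr deletion, with Igf1 the exception. That was the rule over the whole table, since 78.5% of tested genes did the same, and the median difference of all genes was 0.866 on log2(TPM + 1). TPM is a share of each library, and very abundant transcripts such as the seminal vesicle secretions take a different share in each. Changes are therefore given on TMM-scaled CPM, on which the median log2 fold change of all tested genes was -0.0063.

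The comparison of groups asks whether the Igf genes follow loss of the growth hormone receptor. On this scale 0 of the 7 passed edgeR's quasi-likelihood test at an adjusted p under 0.05, where 0% of all 18590 tested genes passed, and 0 of the 7 had an unadjusted p under 0.05, where 4.26% of all genes did. DESeq2 also called 0 of the 7, where it called 0.437% of all genes, and limma-voom called none of the 7 and none of all genes. The log2 fold changes ran from -0.91 for Irs1 to 0.51 for Igf1, with 3 above 0 and 4 below 0 and a median of -0.034. The adjusted p of the 7 ran from 0.874 to 0.983 by edgeR.

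**Figure D2:**
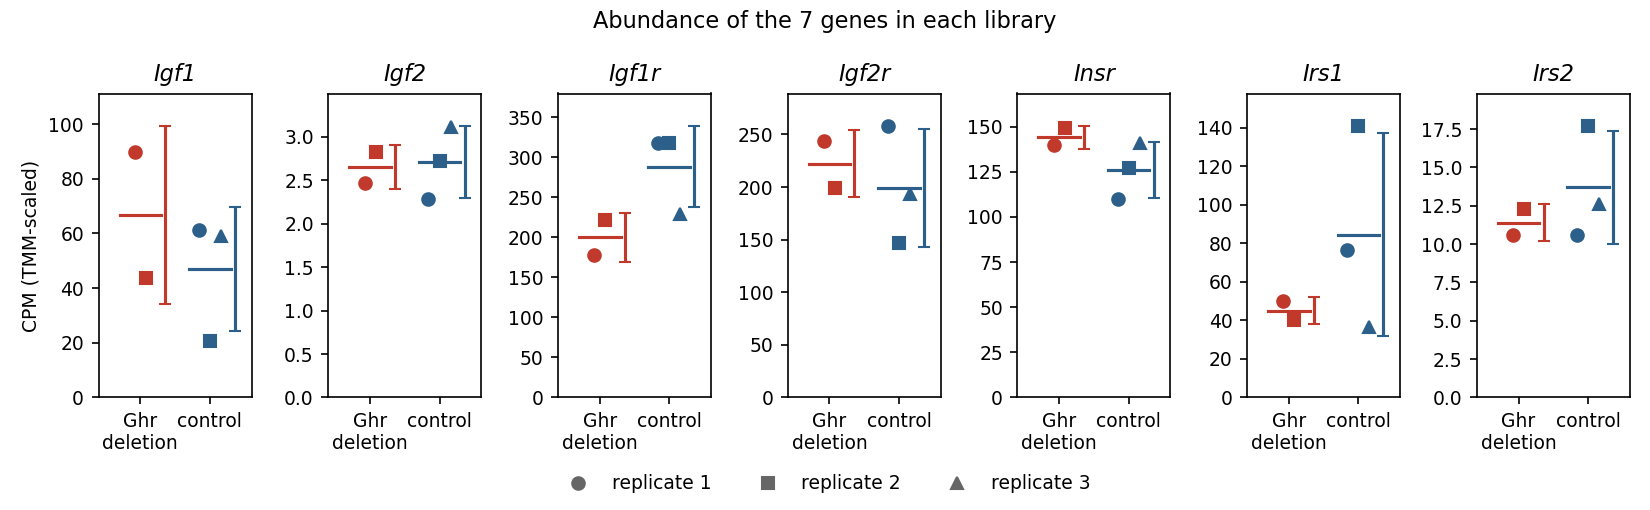
TMM-scaled CPM of each gene, with a y axis from 0 of its own; each point is 1 library, red for Ghr deletion and blue for control, horizontal lines are group means and error bars are 1 SD (n = 2 and n = 3). Only Igf1r has its 2 Ghr deletion libraries below every control library, as 12.5% of all tested genes do.

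Among the ligands, Igf1 varied most. Igf1 (ENSMUSG00000020053, GRCm38 chromosome 10, 87858265 to 87937042, plus strand), the main growth hormone-induced ligand, had 89.8 and 43.8 CPM in libraries labelled Ghr deletion, against 61.2, 20.7 and 58.9 CPM in controls. The highest library was Ghr deletion replicate 1 and the lowest control replicate 2, and the groups overlapped. The log2 fold change was 0.51 (SE 0.54, 95% interval -0.81 to 1.83), and without Ghr deletion replicate 1 it was -0.10. Its gene-wise coefficient of biological variation was 43.3%, so differences of this size were not separable with these 5 mice.

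Markers of stroma, macrophages and endothelium differed between the same libraries. The summed CPM of 8 fibroblast and stroma genes, none of them at 0 in any library, was 3287 and 1445 in the libraries labelled Ghr deletion, against 1443, 939 and 2610 in controls. It was highest in Ghr deletion replicate 1 and lowest in control replicate 2, as Igf1 was. Col1a2, Col3a1, Pdgfra, Dcn and Lum each had this highest and lowest library. Col1a1 was highest in control replicate 3 (318 CPM), and Dpt and Fbln1 in control replicate 1 (129 and 27.3 CPM). None of the 8 genes separated the groups, where 10.8% of all tested genes were higher without overlap and 12.5% lower. The match of the sum with Igf1 was not particular to stroma. The summed CPM of 7 macrophage genes was 122 and 58.3 in the libraries labelled Ghr deletion, against 95.7, 50.7 and 71.4 in controls, and that of 6 endothelial genes was 155 and 99.1 in the libraries labelled Ghr deletion, against 119, 82.3 and 105 in controls. Both sums placed the 5 libraries in the same order as Igf1 did, which the stromal sum did not. Of the 6 endothelial genes 1 was higher without overlap, where 10.8% of all tested genes were. None of the 7 macrophage genes separated the groups. Relative to the stromal genes, Igf1 amounted to 27.3 and 30.3 CPM per 1000 CPM of their sum in the libraries labelled Ghr deletion, against 42.4, 22.0 and 22.6 in controls. In bulk tissue, fewer cells of a type and less RNA per cell cannot be told apart, and the part of these cell types in the Igf1 values was not tested.

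Igf2 (ENSMUSG00000048583, chromosome 7, 142650766 to 142666816, minus strand), a growth factor expressed mainly before birth in mice, was the least abundant. It had 109 and 112 expected counts in the libraries labelled Ghr deletion and 37, 53 and 141 in controls. In CPM this was 2.47 and 2.83 in the libraries labelled Ghr deletion, against 2.28, 2.72 and 3.11 in controls. Both libraries labelled Ghr deletion lay inside the range of the controls, with a log2 fold change of -0.034 (SE 0.33, 95% interval -0.84 to 0.77).

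The lengths that RSEM assigned to Igf2 give a view of which transcripts were counted. The deposited length of a gene is the mean of its transcripts weighted by their estimated abundance. For Igf2 it was 2024 and 2889 bases in the libraries labelled Ghr deletion, against 3708, 2919 and 2771 bases in controls. The value in control replicate 1, 3708 bases, equals the length of the transcript Igf2-201 in GENCODE M21, while 9 transcripts are listed for the gene. Igf2os, an antisense gene, shares 98 exon bases with Igf2 and had at most 4 counts in any library, so few reads could be divided between them. The groups overlapped (two-sided exact permutation test, p = 0.4), and with 37 to 141 counts the split between transcripts rests on few reads. RefSeq gives Igf2 4 start sites. These start sites were not matched to the listed transcripts. The 120 bases before 1 of them are shown, from chr7:142657497-142657616 (GRCm38.p6, minus strand, RefSeq), with GC boxes, GGGCGG, in capitals.
Igf2: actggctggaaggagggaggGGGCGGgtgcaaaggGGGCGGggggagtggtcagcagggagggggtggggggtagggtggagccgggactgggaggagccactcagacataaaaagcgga
The stretch holds 2 such boxes, at positions -100 and -85 relative to the start, and GGGCGG on either strand occurs in 35.7% of the 32851 promoter windows in the RefSeq table (each 250 bases before to 50 after a start site).

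The mean transcript length of Igf1 was 5703 and 5904 bases in the libraries labelled Ghr deletion, against 5933, 5413 and 5520 bases in controls, where the longest of its 8 listed transcripts has 7052 bases and the next longest 2292. No listed transcript has a length in the range of these means, so more than 1 was counted in every library. The groups overlapped (two-sided exact permutation test, p = 0.6). With 2 against 3 samples this test cannot give a p below 0.2.

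Among the receptors, Igf1r came closest to a difference. Igf1r (ENSMUSG00000005533, chromosome 7, 67952827 to 68233668, plus strand) had 178 and 221 CPM in libraries labelled Ghr deletion, against 317, 317 and 229 CPM in controls. Both libraries labelled Ghr deletion were below every control, but Ghr deletion replicate 2 was nearer to control replicate 3 than to Ghr deletion replicate 1. The log2 fold change was -0.53 (SE 0.27, 95% interval -1.19 to 0.13), and edgeR's adjusted p was 0.874. It was -0.69 to -0.38 over the fits that left out 1 library each, and -0.20 without control replicates 1 and 2 together. That last fit was chosen after the values were seen and keeps 1 control library. Only Igf1r of the 7 did not overlap between groups on CPM, where 12.5% of all tested genes were lower and 10.8% higher in this way. On log2(TPM + 1), taken relative to the shift of the median gene, the value was 0.056, on the other side of 0, and on log2(TPM + 0.1) it was -0.345. The direction was kept in 18 of 19 alternatives.

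Insr had the narrowest interval of the 7 genes. Insr (ENSMUSG00000005534, chromosome 8, 3122061 to 3279617, minus strand), which binds insulin and, in one splice form, Igf2, had 140 and 149 CPM in libraries labelled Ghr deletion, against 110, 127 and 141 CPM in controls. The value of control replicate 3 fell between those of the libraries with the Ghr deletion label, so the groups overlapped. The log2 fold change was 0.20 (SE 0.20, 95% interval -0.30 to 0.70). Its mean transcript length was 5978 and 5566 bases in the libraries labelled Ghr deletion, against 5730, 4948 and 5831 bases in controls, well under the 9355 bases of Insr-201, its full-length coding transcript. Among the 5 transcripts listed for Insr, 2 are annotated as retained introns.

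Igf2r (ENSMUSG00000023830, chromosome 17, 12682406 to 12769664, minus strand), the imprinted clearance receptor for Igf2, had 244 and 199 CPM in libraries labelled Ghr deletion, against 258, 147 and 193 CPM in controls. Control replicates 1 and 2 were the highest and the lowest of all, and the log2 fold change was 0.15 (SE 0.30, 95% interval -0.59 to 0.90). Airn, the antisense RNA that silences the paternal copy of Igf2r, overlaps the gene on the other strand and shares no exon bases with it in GENCODE M21. Airn had 10.3 and 12.6 CPM in libraries labelled Ghr deletion, against 12.7, 27.5 and 9.2 CPM in controls (log2 fold change -0.52, SE 0.49). The strand setting used in counting is not given, but Irs1, described below, shared reads with a gene on the other strand. Reads of Airn and reads of Igf2r introns therefore cannot be told apart here. Control replicate 2 was the library with the highest Airn count and the lowest Igf2r count.

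Among the substrates, Irs1 had the largest change and the widest interval of the 7. Irs1 (ENSMUSG00000055980, chromosome 1, 82233101 to 82291416, minus strand), the docking protein that links both kinases to phosphoinositide 3-kinase, had 49.9 and 40.1 CPM in libraries labelled Ghr deletion, against 76.4, 141 and 36.4 CPM in controls. Control replicate 3 was below both libraries labelled Ghr deletion, and control replicates 1 and 2 were above them. The log2 fold change was -0.91 (SE 0.56, 95% interval -2.28 to 0.46), and edgeR's adjusted p was 0.874. Over the fits that left out 1 library each it ran from -1.28, without control replicate 3, to -0.32, without control replicate 2, and it was 0.31 when control replicates 1 and 2 were both left out. That fit was added once the values were known, keeps 1 control library, and assumes that it varies as the other group does. Control replicates 1 and 2 also had the highest sums of the prostate genes listed above. In control replicate 1, Spink1 alone made up 2940 of the 2962 CPM. Control replicate 2 had the highest summed CPM of 6 basal epithelial genes, at 1025 CPM, against 385 and 567 in the libraries labelled Ghr deletion and 413 and 487 in the other controls. Dst alone had 921 CPM of that sum in control replicate 2. Krt5 and Krt17 were also highest there, at 34.7 and 2.21 CPM. Krt14 was highest in control replicate 3 (18.1 CPM), Krt15 in Ghr deletion replicate 1 (27.7 CPM) and Trp63 in control replicate 1 (52.2 CPM). The part of either marker group in the Irs1 values was not tested.

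The Irs1 count itself depended on how reads were divided. Gm9747 is a gene of 1 exon, annotated on the plus strand at chromosome 1, 82233112 to 82235933, and its 2822 bases lie wholly inside the last exon of Irs1, which is untranslated. Irs1 and Gm9747 had fractional expected counts in 4 of the 5 libraries, and in each of these the sum of both genes was a whole number at the 2 decimals given in the deposited tables. The sums were 3137 and 1964 in the libraries labelled Ghr deletion, against 1516, 2743 and 2051 in controls. Irs1 was given 70.2% and 80.9% of this sum in the libraries labelled Ghr deletion, against 81.6%, 100% and 80.5% in controls. Reads were thus shared between genes on opposite strands, and the library with the most Irs1, control replicate 2, was the one in which Gm9747 was given 0 counts. With the counts of both genes added together, also chosen after seeing the data, there were 71.2 and 49.6 CPM in libraries labelled Ghr deletion, against 93.6, 141 and 45.2 CPM in controls. The log2 fold change became -0.63 (SE 0.49, 95% interval -1.83 to 0.58). The groups still overlapped, and control replicate 3 was still the lowest library.

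**Figure D3:**
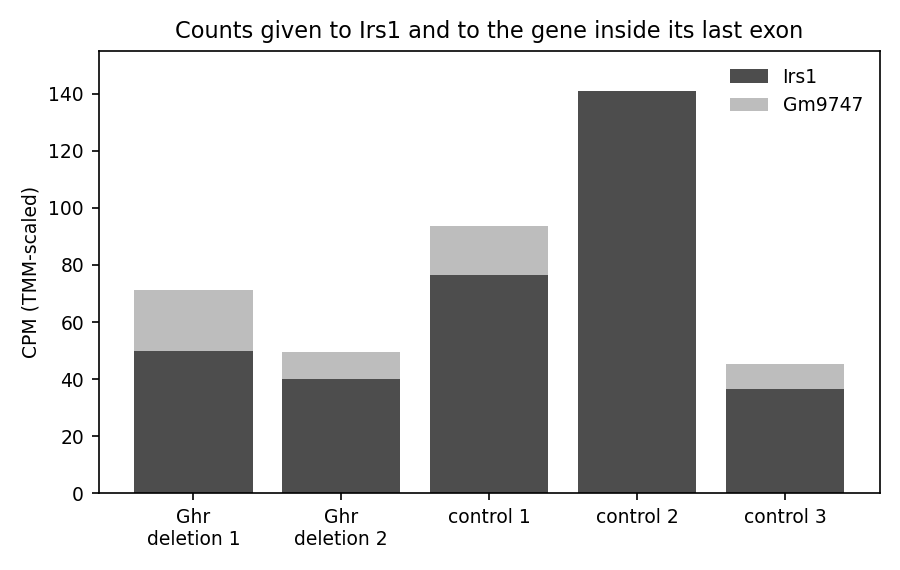
Stacked bars of TMM-scaled CPM given to Irs1 (dark) and to Gm9747 (light), the gene inside the last Irs1 exon on the other strand, 1 bar per library. Gm9747 takes nothing in control 2 and its largest part in Ghr deletion 1, where Irs1 was given 70.2% of the sum.

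Irs2 (ENSMUSG00000038894, chromosome 8, 10984681 to 11008458, minus strand), the second docking protein, was lower than Irs1 in every library and less variable. It had 10.6 and 12.3 CPM in libraries labelled Ghr deletion, against 10.6, 17.7 and 12.6 CPM in controls. Control replicate 2 was again the highest library, and the other 4 lay between 10.6 and 12.6 CPM. The log2 fold change was -0.26 (SE 0.28, 95% interval -0.95 to 0.43).

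The promoter windows of Irs1, Irs2 and Igf2r share an element that the other members' windows lack, and the stretches that hold it are shown. Each is 80 bases from before a RefSeq start site in GRCm38.p6, with the E-box CACGTG in capitals: Igf2r from chr17:12769707-12769786, Irs1 from chr1:82291512-82291591 and Irs2 from chr8:11008931-11009010, all on the minus strand.
Igf2r: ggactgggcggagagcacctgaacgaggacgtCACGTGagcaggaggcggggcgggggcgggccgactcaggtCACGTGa
Irs1: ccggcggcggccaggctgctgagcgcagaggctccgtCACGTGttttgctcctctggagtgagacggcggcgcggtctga
Irs2: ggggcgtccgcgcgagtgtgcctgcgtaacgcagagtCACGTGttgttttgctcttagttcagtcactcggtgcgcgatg
Relative to the start, the E-box begins at position -115 in Irs1 and -44 in Irs2, and Igf2r holds 2, at -48 and -7. CACGTG, which reads the same on both strands, occurs in 7.15% of the 32851 windows. RefSeq windows were found for 6 members, 9 windows in all, and none for Insr. TTCNNNGAA, the STAT element bound by the transcription factors below the growth hormone receptor, was in 0 of these 9 windows on either strand. Of all windows 8.3% hold it. The forkhead element GTAAACA was also in 0, where 3.65% of all windows hold it. With only 9 windows a count of 0 cannot be told apart from these shares, and bases outside the windows were not searched. The levels of the 3 genes with the E-box did not move together, since control replicate 2 was the highest library for Irs1 and Irs2 and the lowest for Igf2r.

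**Figure D4:**
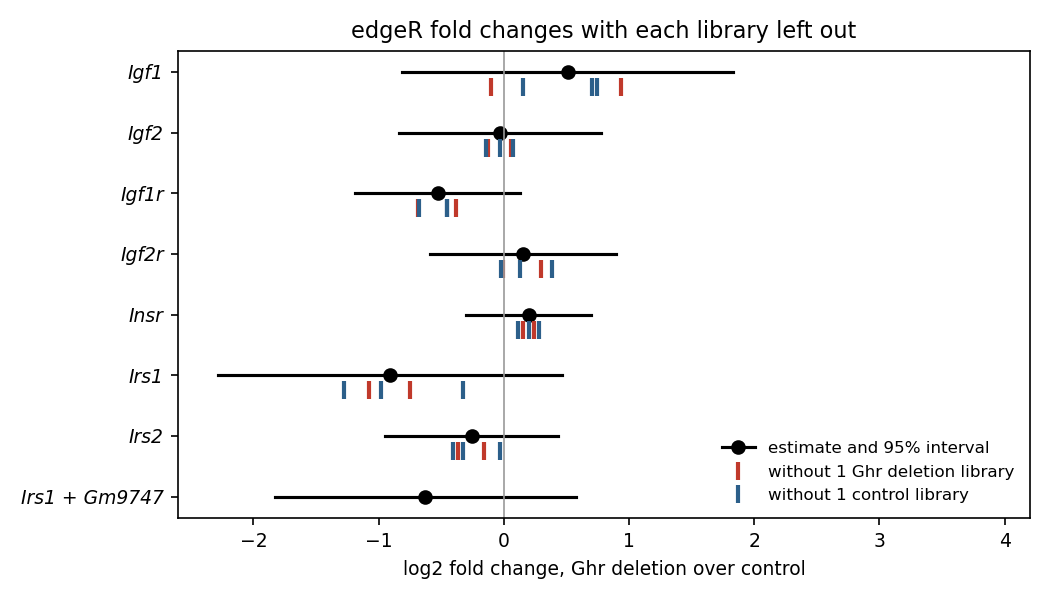
edgeR log2 fold change of Ghr deletion over control for each gene (black point) with its 95% interval (black line), and below it the values with 1 Ghr deletion library (red ticks) or 1 control library (blue ticks) left out; the last line is Irs1 and Gm9747 counted together. Every interval spans 0, and the ticks of Igf1, Igf2 and Igf2r fall on both sides of it.

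Ratios between 2 genes of the same library do not depend on how libraries are scaled to each other. The log2 ratio of Igf1r to Insr in TPM was -0.25 and -0.084 in the libraries labelled Ghr deletion, against 0.78, 0.50 and 0.061 in controls. In TPM, Insr thus exceeded Igf1r in both libraries labelled Ghr deletion, and Igf1r exceeded Insr in all 3 controls. Which gene was higher depended on the lengths assigned by RSEM, since in CPM, not divided by length, Igf1r exceeded Insr in every library. The mean ratio was -0.17 ± 0.12 in the libraries labelled Ghr deletion (SD, n = 2) and 0.45 ± 0.36 in controls (SD, n = 3), a difference of -0.62. Its two-sided exact permutation p was 0.2, the smallest that 2 against 3 samples allow, or 0.6 after Benjamini-Hochberg adjustment over the 6 ratios computed. Leaving out 1 library gave differences of -0.81 to -0.45. The gap between the nearest libraries, control replicate 3 and Ghr deletion replicate 2, was 0.15, less than the SD of the controls.

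The ratio of Igf1r to Igf2r separated the groups by less. It was -0.48 and 0.16 in the libraries labelled Ghr deletion, against 0.19, 0.99 and 0.19 in controls, with a difference of -0.62 and an exact permutation p of 0.2. Ghr deletion replicate 2 was only 0.029 below the nearest control. The ratios of Igf1 to Igf2, Irs1 to Irs2, Igf1 to Igf1r and Igf2 to Igf2r overlapped between groups, with exact permutation p values of 0.6 to 1. Irs1 exceeded Irs2 in every library, with log2 ratios of 1.69 and 1.16 in the libraries labelled Ghr deletion, against 2.30, 2.44 and 0.98 in controls. Igf1 exceeded Igf2 in every library as well, with log2 ratios of 3.58 and 2.87 in the libraries labelled Ghr deletion, against 4.05, 2.00 and 3.19 in controls.

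**Figure D5:**
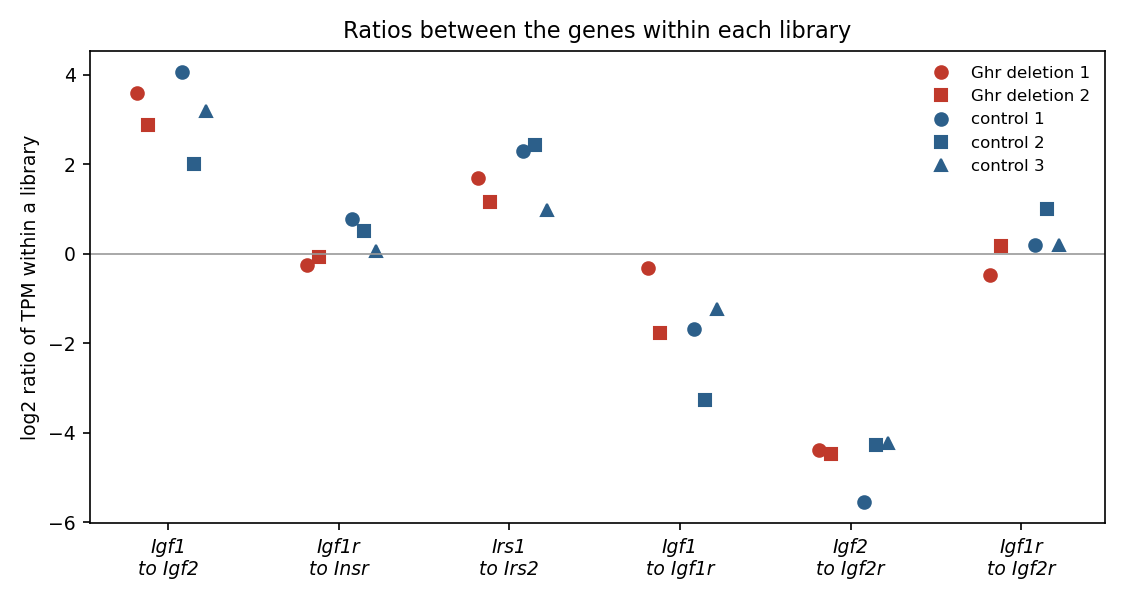
log2 of the TPM ratio of 2 genes within each library, for 6 pairs; points are libraries, red for Ghr deletion and blue for control. Only the ratios of Igf1r to Insr and of Igf1r to Igf2r keep the 2 Ghr deletion libraries below every control, the second by 0.029.

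Below the receptors, 45 genes of the insulin and Igf pathway were examined, from phosphoinositide 3-kinase and Akt to mTOR, FoxO factors and the Ras to Erk branch, and all 45 were tested. Of these 0 passed by edgeR, where 0% of all tested genes did, and 0 by DESeq2, where 0.437% did. An unadjusted p under 0.05 was reached by 2 of the 45, both lower, where 4.26% of all genes reached it. The median log2 fold change of the 45 was 0.027, beside -0.0063 for all tested genes. Of the 45, 24 were above 0 and 21 below 0, where 9180 and 9410 of all tested genes were. Without overlap between groups, 6 of them were higher and 8 lower, where 10.8% of all tested genes were higher and 12.5% lower in this way. The 4 genes with the smallest p were all on the lower side. This lean was shared by the whole table, where 576 of the 792 genes with an unadjusted p under 0.05 were lower. Map2k2, a kinase that activates Erk, had 14.0 and 16.2 CPM in libraries labelled Ghr deletion, against 21.2, 39.7 and 22.2 CPM in controls (log2 fold change -0.88, SE 0.34). Inppl1, a lipid phosphatase that opposes phosphoinositide 3-kinase, had 47.3 and 49.0 CPM in libraries labelled Ghr deletion, against 70.3, 116 and 62.6 CPM in controls (-0.79, SE 0.31). Pik3r2, a regulatory subunit of phosphoinositide 3-kinase, had 12.1 and 12.9 CPM in libraries labelled Ghr deletion, against 16.5, 30.8 and 17.5 CPM in controls (-0.79, SE 0.33). Hras, a Ras protein, had 12.2 and 11.8 CPM in libraries labelled Ghr deletion, against 16.4, 17.6 and 15 CPM in controls (-0.45, SE 0.19). Each had an adjusted p of 0.874 by edgeR, and control replicate 2 was the highest library for all 4.

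Irs4, another docking protein, is named because its values resembled those of Irs1, a choice made after they were seen. It had 2.45 and 1.29 CPM in libraries labelled Ghr deletion, against 13.5, 7.35 and 1.08 CPM in controls (log2 fold change -1.95, SE 1.01), with 0.874 as edgeR's adjusted p. As for Irs1, control replicates 1 and 2 were high and control replicate 3 was below both libraries labelled Ghr deletion. Irs3 stayed under 0.9 CPM in all 5 libraries.

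Transcripts known to rise with FoxO activity, which insulin and Igf signalling restrains, were not called either. Of 12 genes tested 0 passed by edgeR, 0 by DESeq2 and 0 at an unadjusted p under 0.05. Among all tested genes the shares were 0%, 0.437% and 4.26% in the same order. The median log2 fold change of the 12 was 0.14, beside -0.0063 for all tested genes. Of the 12, 8 were above 0, where 9180 of 18590 tested genes were. Klf15, a transcription factor, had 12.3 and 19.1 CPM in libraries labelled Ghr deletion, against 22.6, 29.5 and 21.9 CPM in controls (-0.65, SE 0.28). Fbxo32, a ubiquitin ligase subunit induced in wasting muscle, had 197 and 216 CPM in libraries labelled Ghr deletion, against 64.6, 40.6 and 196 CPM in controls (1.04, SE 0.65). Bnip3, a mitophagy receptor, had 25.4 and 25.6 CPM in libraries labelled Ghr deletion, against 10, 5.91 and 27.0 CPM in controls (0.83, SE 0.61). Trim63, another ubiquitin ligase of muscle, had 0.431 and 0.555 CPM in libraries labelled Ghr deletion, against 2.65, 0.771 and 0.309 CPM in controls (-1.30, SE 0.95). These 4, with the smallest p of the list, each had an adjusted p of 0.874 by edgeR. In Fbxo32 and Bnip3, control replicate 3 was near the level of both libraries labelled Ghr deletion, and control replicates 1 and 2 were lower.

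The other possible ligands were not seen. Ins1 and Ins2, the mouse insulin genes, had 0 counts in every library. H19, the noncoding RNA that shares its imprinting control with Igf2, had 0.658 and 0.58 CPM in libraries labelled Ghr deletion, against 0, 0.462 and 0.904 CPM in controls. Of the proteins that bind Igf2 mRNA, Igf2bp2 (2.11 and 1.59 CPM in libraries labelled Ghr deletion, against 1.54, 2.26 and 1.52 CPM in controls) and Igf2bp3 (1.63 and 1.62 CPM in libraries labelled Ghr deletion, against 1.42, 2.00 and 1.52 CPM in controls) were low and even, and Igf2bp1 ranged from 0.0757 CPM in Ghr deletion replicate 2 to 2.16 CPM in control replicate 2.

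The genes whose values over the 5 libraries were most like each member were taken from 11784 candidates, by the root mean square difference in centred log2 CPM. With 5 libraries and this many candidates some close match exists for any gene, and the names are given as a description with no test. For Igf1 they were Gpx7 (0.0648), Serping1 (0.0989) and Colec12 (0.101). For Igf1r they were Asl (0.0371), mt-Atp6 (0.0426) and Plcl1 (0.0489). For Insr they were Ist1 (0.0238), Mrps31 (0.0308) and Emsy (0.0372), and for Igf2r Lysmd3 (0.0247), Fam206a (0.0268) and Ccnyl1 (0.0269). For Irs1 they were Plekha6 (0.098), Dhx58 (0.102) and Rab40b (0.136), the most distant of the 7 sets, and for Irs2 Ccdc130 (0.0252), Zfp282 (0.0291) and Bicral (0.0304). For Igf2 they were Nfe2l1 (0.0259), Cstf1 (0.0386) and Ccdc189 (0.0391).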

How the data were processed

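Per the submitters' processing notes, the tools were RSEM 1.3.0, STAR 2.5.3a and bcl2fastq 2.20.422, and the build was GRCm38. Libraries were made with a stranded kit, per the labels' protocols. The strand setting used in counting and the annotation release were not given in the sources used here. RSEM tables per gene were deposited, with expected counts, TPM and lengths in bases (unit other: abundance-weighted transcript length and effective length), per the file headers. RSEM shares reads that fit several genes by a model. Symbols matched 99.5% of identifiers, and positions are from GENCODE M21.

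Expected counts were rounded, filtered with filterByExpr, and scaled by TMM. Group was the single model term in edgeR 4.0.16 (quasi-likelihood F test, R 4.3.3), and p-values were adjusted by Benjamini-Hochberg over 18590 genes, with 0.05 as the threshold. DESeq2 1.42.0, limma 3.58.1 (voom, and trend on TPM with pseudocounts of 1 and 0.1), other scalings and filters, length offsets, a replicate block and each library left out were alternatives. Standard errors came from the F statistic. Ratios and lengths were compared with two-sided exact permutation tests. The members and lists were chosen with earlier results of these data known. All 7 members are named, with the 4 smallest p of the pathway and FoxO lists, list neighbours with a mean of at least 10 counts, and the 3 most alike genes of each member. Ins1, Ins2, Igf2os, Irs3 and Irs4 fall outside this rule and were named after their values were seen. Depth was 19517831 to 41553558 counts per library. A gene of the marker lists is not reported here and was left out of the sums.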

Additional observations from a re-analysis of the deposited data

How the results depend on the processing

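The 0 genes called over the whole table became 2 with no low-count filter, 81 with DESeq2, 2294 on log2(TPM + 1), 733 on log2(TPM + 0.1) and 1126 with the replicate number as a block, and 0 to 48 with 1 library left out, the 48 without control replicate 3. The 0 of 7 members became 1 on log2(TPM + 1), where Igf2 was called higher (adjusted p = 0.0412 by limma, against 0.0412 to 1 over all alternatives) with all genes shifted up by a median of 0.866, relative to which Igf2 was at -0.19, and 1 with the replicate block, where Irs1 was called lower (log2 fold change -1.21, adjusted p = 0.0493 by edgeR, against 0.0493 to 1 over all alternatives). Pathway genes called became 1 on log2(TPM + 1) and 2 with the block, and FoxO target genes became 3 on log2(TPM + 1), 1 on log2(TPM + 0.1) and 2 with the block; leaving out 1 library left 0 in each. The labels do not say that replicate numbers pair mice. Deviations of same-numbered libraries from their group means correlated at 0.261 and 0.339 over 1000 genes, from 2 pairs only. The deviations of the 2 Ghr deletion libraries mirror each other, so crossed numbers must give the same sizes with reversed sign, -0.261 and -0.339. The correlations therefore cannot decide the question, and the numbers are not taken to pair mice. Medians of all genes shifted to 0.866 and 1.33 on the TPM scales and 0.58 with library size only, and values there are relative to them.

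Of 226 alternative values of the differences, 19 lay on the other side of 0 from the main value. With 1 library left out, Igf1 ran from -0.10 to 0.94, Igf2 from -0.14 to 0.072, Igf2r from -0.026 to 0.38 and Ghr from -0.20 to 0.88. Igf2 was 0.34 with effective lengths as offsets, 0.22 on log2(TPM + 0.1) and 0.084 with the block, Igf1r was 0.056 on log2(TPM + 1), and Irs1 was 0.31 without control replicates 1 and 2 together. The log2 ratio of Igf1 to Igf2 differed by -0.39 to 0.63 and that of Igf2 to Igf2r by -0.18 to 0.48 with 1 library left out, and the second by -0.21 on CPM and -0.045 on TPM + 0.1. Differences in transcript length ran from -446 to 13.4 bases for Igf1r, from -4.92 to 450 for Igf2r and from -8.26 to 475 for Insr. Insr and Irs2 kept their direction in all 19 alternatives each. The cause of these changes was not tested. Igf2 had the fewest counts, 37 in control replicate 1.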
